A study of Gossypium hirsutum with 12 samples.

Results

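The genes described here encode glutathione S-transferases (GSTs) of the TAU class in the primary root tip of cotton (Gossypium hirsutum). The 5 genes, of 70477 in the deposited table, were taken by their IDs. Of these, 4 are annotated in the study's tables as GST TAU 8, namely Gh_A09G1508, Gh_A09G1509 and Gh_A09G1510, which carry consecutive numbers on chromosome A09, and Gh_D09G1520 on chromosome D09. The other member, Gh_D13G1617 on chromosome D13, is annotated as GST TAU 19. All 5 passed the low-count filter that left 43938 genes to test, Gh_A09G1510 through its 48 h libraries only. The members were chosen with their levels in every group and their age changes already known, so their values are given below as a description, without p-values.

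Seedlings of cultivar AU90810 grew in the dark in vermiculite and were harvested 24 h or 48 h after transplanting. WS48 and WS24 are water-stressed roots (−1.0 MPa vermiculite, apical 6 mm taken) at 48 h and 24 h, and WW48 and WW24 are well-watered roots (−0.02 MPa, apical 12 mm taken) at the same times. Each group had 3 libraries, each of pooled root tips from an independent experiment. The excised length differed with the treatment because the elongation zone is shorter under stress, so an effect of water deficit and an effect of the sampled length cannot be told apart in any comparison of WS with WW tips.

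GSTs join the tripeptide glutathione to electrophilic compounds, such as products of lipid peroxidation, herbicides and reactive secondary metabolites. The TAU class is specific to plants, where its genes often lie in tandem arrays and many respond to stress, hormones or foreign chemicals. The conjugates are carried into the vacuole by transporters of the multidrug resistance-associated protein family, and glutathione is also used by glyoxalase I, which removes methylglyoxal, and by glutaredoxins, which reduce disulfides.

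Reads assigned to genes numbered 6433993 to 11316010 per library. Of the libraries, 2 bear on the results below. On the first principal component of all genes (46.0% of the variance) WW24 replicate 2 lay at 90.4, against −29.1 and −6.15 for the other WW24 libraries. WS48 replicate 2 lay at 85.3 on the second component (19.9%), against 36.0 and 38.9 for the other WS48 libraries. WW48 replicate 2 was also the farthest of its group on the first component, at 148 against 104 and 97.6. Values below are CPM, read counts divided by the library size after scaling by the trimmed mean of M-values (TMM). Gene lengths were not at hand, so levels are compared between groups of one gene and not between genes.

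The TAU 8 genes were far more abundant in older than in younger watered tips. In WW48 replicates 1, 2 and 3, Gh_D09G1520 had 951, 1339 and 726 CPM, against 43.9, 253 and 77.8 CPM in WW24. Gh_A09G1509 had 643, 1282 and 636 CPM in WW48, against 59.6, 220 and 74.6 CPM in WW24. For both genes every WW48 library lay above every WW24 library, and the highest WW24 value came from replicate 2. Their fitted log2 fold changes for WW48/WW24 were 3.01 (SE 0.58) for Gh_D09G1520 and 2.85 (SE 0.72) for Gh_A09G1509. In whole root tips, more cells of an expressing type and more RNA per cell cannot be told apart.

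The remaining A09 copies had fewer reads and moved the same way. Gh_A09G1508 had 17.2, 84.0 and 28.6 CPM in WW48, against 2.57, 10.1 and 3.40 CPM in WW24, a log2 fold change of 3.04 (SE 0.60). Gh_A09G1510 was nearly silent in young watered tips, with 69, 136 and 406 reads in WW48, against 4, 6 and 2 reads in WW24. Its log2 fold change, 5.45 (SE 1.39), rests on those few WW24 reads. Added over the 4 genes, TAU 8 reached 1619, 2726 and 1426 CPM in WW48, against 107, 484 and 156 CPM in WW24, a mean of 1923 ± 701 CPM against 249 ± 205 CPM (SD, n = 3 each) and a log2 fold change of 2.95 (SE 0.63).

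**Figure D1:**
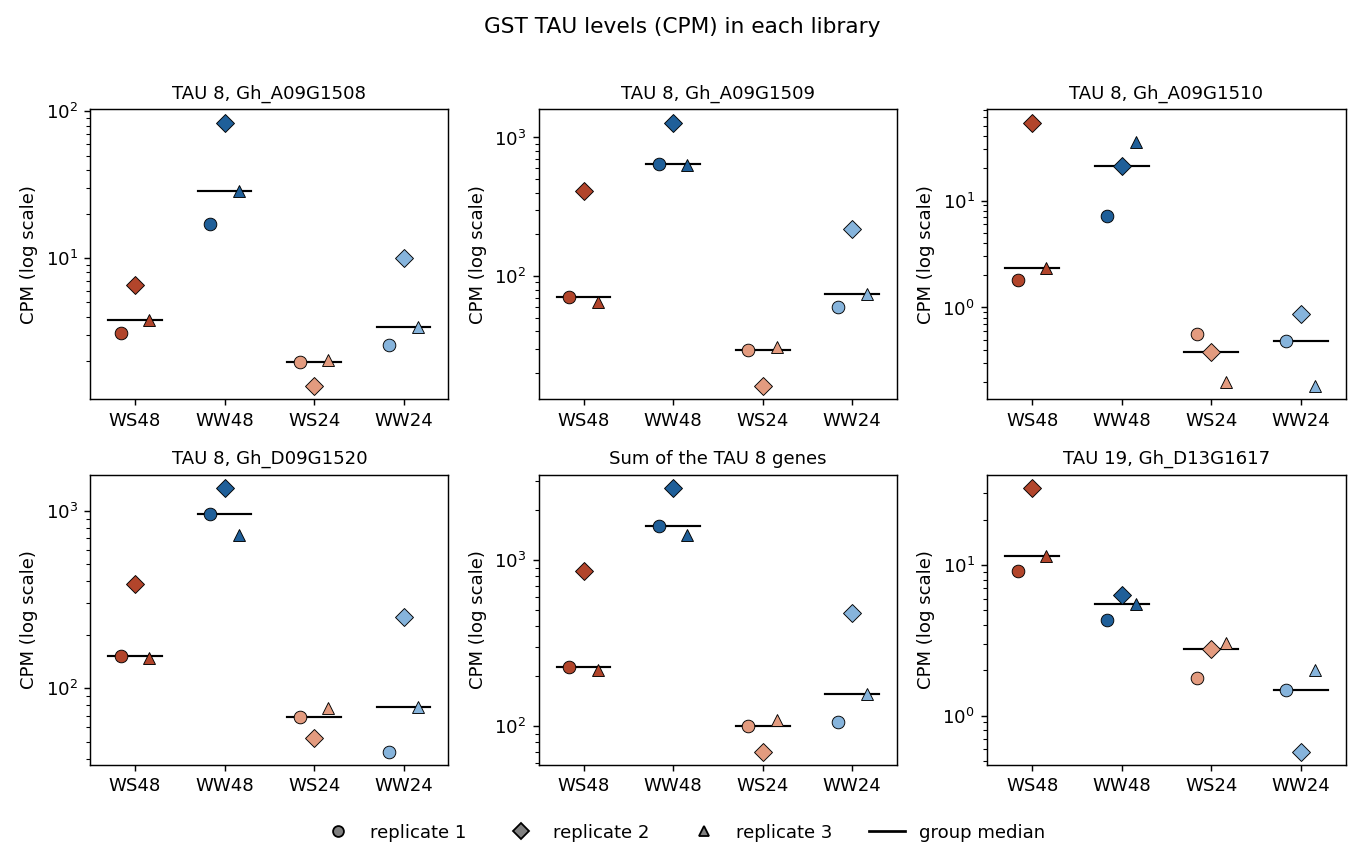
CPM on a log axis for each TAU gene and for the TAU 8 sum, by group (WS48, WW48, WS24, WW24). Each point is a library, its shape gives the replicate number and black lines are group medians. The 3 WW48 points lie above all WW24 points in every panel, and WS48 replicate 2 lies far above the other WS48 libraries, as with 858 CPM for the TAU 8 sum against 228 and 218 CPM.

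TAU 19 also rose with age in watered tips. Gh_D13G1617 had 4.33, 6.31 and 5.48 CPM in WW48, against 1.47, 0.576 and 2.02 CPM in WW24, a log2 fold change of 1.90 (SE 0.54). The groups did not overlap. Here WW24 replicate 2 was the lowest library of its group, where for the 4 TAU 8 genes it was the highest.

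A gene was called where edgeR's quasi-likelihood test gave an adjusted p not above 0.05 and a change of at least 1 in size on the log2 scale. By this rule 5 of 5 members were called higher in WW48/WW24, where 3.53% of all genes tested were called higher and 1.26% lower. The median log2 fold change was 3.01 over the members and 0.003 over all genes tested. All 5 also had WW48 and WW24 libraries that did not overlap, as did 12.2% of the genes tested in that direction and 11.2% in the other. Since this contrast was known when the genes were chosen, nothing is read from these counts. The number called was 1 without WW24 replicate 3, 2 without WW24 replicate 1 or WW48 replicate 2, 3 without WS24 replicate 2, WS24 replicate 3 or WW48 replicate 3, and 4 or 5 without any one of the others. With only WW48 and WW24 in the model, 1 of 5 members was called, among 395 genes called (2106 with all libraries).

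In stressed tips the TAU 8 genes were again higher at 48 h, but the size of the change depended on WS48 replicate 2. Gh_D09G1520 had 152, 386 and 147 CPM in WS48, against 68.8, 52.7 and 76.9 CPM in WS24. Gh_A09G1509 had 70.6, 412 and 64.9 CPM in WS48, against 29.3, 16.1 and 30.6 CPM in WS24. Both genes were thus about as high in WS48 replicate 1 as in replicate 3, with replicate 2 well above them. The log2 fold changes for WS48/WS24 were 1.79 (SE 0.56) for Gh_D09G1520 and 2.85 (SE 0.73) for Gh_A09G1509.

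Gh_A09G1510 showed the widest spread among the WS48 libraries, with 19, 599 and 22 reads in WS48, against 6, 4 and 2 reads in WS24. Its fitted log2 fold change was 5.60 (SE 1.39) with replicate 2 and 2.38 without that library. Gh_A09G1508 had 3.07, 6.53 and 3.81 CPM in WS48, against 1.96, 1.34 and 2.03 CPM in WS24, a log2 fold change of 1.33 (SE 0.68). The TAU 8 sum was 228, 858 and 218 CPM in WS48, against 101, 70.5 and 110 CPM in WS24, a log2 fold change of 2.21 (SE 0.62) that was 1.25 without WS48 replicate 2.

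TAU 19 rose with age under stress as well. Gh_D13G1617 had 9.21, 32.6 and 11.5 CPM in WS48, against 1.78, 2.78 and 3.05 CPM in WS24. Its log2 fold change was 2.81 (SE 0.48), and 2.03 (SE 0.35) without WS48 replicate 2. For all 5 members every WS48 library lay above every WS24 library, a pattern of 16.8% of the genes tested, with 16.7% the other way. In the test, 1 of 5 members, Gh_D13G1617, was called higher in WS48/WS24, where 0.127% of the genes tested were called higher and 0.255% lower. That call was lost without WS48 replicate 2 or replicate 3, without any one of the WS24 libraries and without WW48 replicate 1, and 4 members were called without WW24 replicate 2, when the genes called numbered 1214 (832 of them higher) against 168 (56 higher) with all libraries. With only WS48 and WS24 in the model, 5 of 5 members were called higher, among 1529 genes called. The counts of members called in stressed and watered tips thus changed places with the libraries in the model. The median log2 fold change was 2.81 over the members and 0.001 over all genes tested.

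The ratio of group medians, which a single high library moves little, was smaller in stressed than in watered tips for each TAU 8 gene and close to equal for TAU 19. For the TAU 8 sum the 48 h median was 2.26 times the 24 h median in stressed tips and 10.4 times in watered tips. The same ratio was 2.21 in stressed and 12.2 in watered tips for Gh_D09G1520, 2.41 and 8.62 for Gh_A09G1509, 1.94 and 8.41 for Gh_A09G1508, and 6.08 and 42.7 for Gh_A09G1510. For TAU 19 it was 4.16 in stressed and 3.73 in watered tips. These are descriptions of 3 libraries a group, with no test.

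The fitted difference of the age changes (WS48/WS24 over WW48/WW24, the interaction term) was −1.71 (SE 0.91) on the log2 scale for Gh_A09G1508, −0.006 (SE 1.05) for Gh_A09G1509, 0.15 (SE 2.27) for Gh_A09G1510 and −1.22 (SE 0.77) for Gh_D09G1520. It was −0.74 (SE 0.83) for the TAU 8 sum and 0.91 (SE 0.73) for TAU 19. With all libraries in the fit, each of these lay within 2 standard errors of 0. No member was called, and 0 of the 43938 genes tested passed (0%, lowest adjusted p 0.0664 by edgeR's quasi-likelihood test). At an unadjusted p under 0.05 there were 5160 genes, while limma-voom called 0 genes and DESeq2 called 399.

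Leaving out WW24 replicate 2 and WS48 replicate 2 together, a choice made after the values were seen and because the TAU genes stood apart there, gave other values. The difference was then −2.83 (SE 0.93) for Gh_A09G1508, −2.23 (SE 0.43) for Gh_A09G1509, −3.62 (SE 1.44) for Gh_A09G1510, −2.85 (SE 0.38) for Gh_D09G1520, −2.60 (SE 0.38) for the TAU 8 sum and 0.46 (SE 0.40) for TAU 19. In that fit 2 members, Gh_A09G1509 and Gh_D09G1520, and 2044 genes in all were called. The libraries left out were picked on the members' own values, and WW48 replicate 2, the highest of its group for the TAU 8 sum, was kept. Nothing is read from these calls. Dropping WS48 replicate 2 alone gave −1.70 for the TAU 8 sum with no member called, and dropping WW24 replicate 2 alone gave −1.64 with 1 member called, Gh_D09G1520, in a fit where 1657 genes were called.

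**Figure D2:**
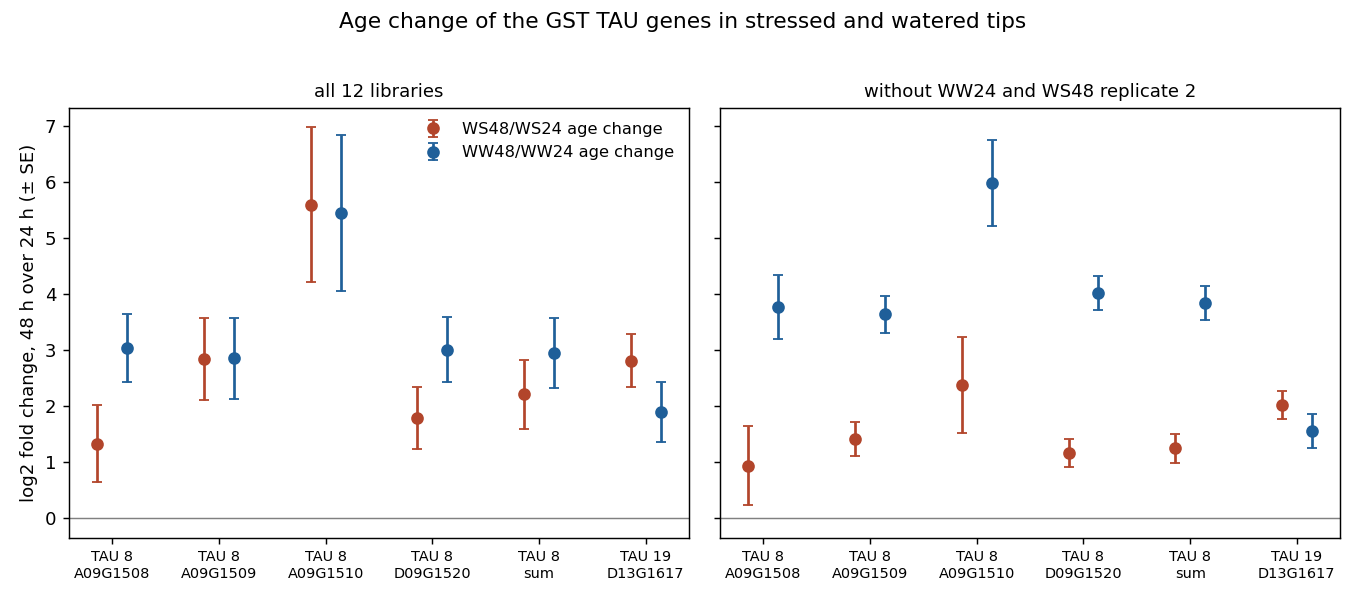
Fitted log2 fold change of 48 h over 24 h tips (points, with bars of 1 SE) in stressed (WS48/WS24) and watered (WW48/WW24) tips, for each TAU gene and the TAU 8 sum, from all 12 libraries (left) and without replicate 2 of WW24 and of WS48 (right). For the TAU 8 sum the values are 2.21 and 2.95 on the left and 1.25 and 3.85 on the right, whereas TAU 19 has the higher point in stressed tips in both panels. The libraries left out on the right were chosen after the values were seen.

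Set against watered tips of the same age, TAU 8 and TAU 19 went opposite ways at 48 h. The TAU 8 sum was 228, 858 and 218 CPM in WS48, against 1619, 2726 and 1426 CPM in WW48, with no overlap and a log2 fold change of −2.15 (SE 0.61). Gh_D13G1617 had 9.21, 32.6 and 11.5 CPM in WS48, against 4.33, 6.31 and 5.48 CPM in WW48, a log2 fold change of 1.74 (SE 0.45). In WS48/WW48, 3 of 5 members were called lower (Gh_A09G1508, Gh_A09G1509 and Gh_D09G1520) and 1 higher (Gh_D13G1617), where 5.98% of the genes tested were called lower and 3.18% higher. The libraries of these 4 genes did not overlap between the groups, as those of 20.8% of the genes tested on the lower and 20.7% on the higher side.

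The single TAU 8 gene not called was Gh_A09G1510, with 1.82, 53.6 and 2.33 CPM in WS48, against 7.11, 20.9 and 35.3 CPM in WW48. Its log2 fold change was −0.13 (SE 0.93), and −3.34 without WS48 replicate 2. TAU 19 was at 0.96 without that library. It was called neither then nor without any one of the WW48 libraries. The number of members called was lowest, at 1, without WW48 replicate 2, and was 2 without WW48 replicate 1 or 3 or WS48 replicate 1 or 3.

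At 24 h the TAU 8 sums of stressed and watered tips were not separate. The TAU 8 sum was 101, 70.5 and 110 CPM in WS24, against 107, 484 and 156 CPM in WW24, and the log2 fold change was −1.41 (SE 0.60) with WW24 replicate 2 and −0.47 without it. Gh_A09G1508 and Gh_A09G1509 were lower in every WS24 than in every WW24 library (14.9% of the genes tested were), whereas the groups overlapped for Gh_A09G1510, Gh_D09G1520 and Gh_D13G1617. In WS24/WW24, 0 of 5 members were called by edgeR, where 3.75% of the genes tested were called higher and 4.93% lower. In the same comparison 1 member was called without WW24 replicate 1, WS48 replicate 2 or WS48 replicate 3, without the filter, and with only WS24 and WW24 in the model.

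The study also set 48 h stressed tips against 24 h watered tips as a developmental control. In WS48/WW24, 2 of 5 members were called higher (Gh_A09G1510, log2 fold change 5.32 with SE 1.39, and Gh_D13G1617, 3.64 with SE 0.52), where 3.57% of the genes tested were called higher and 3.9% lower. Both had WS48 libraries wholly above the WW24 libraries, as did 15.4% of the genes tested. Gh_A09G1510 passed the low-count filter only through the 48 h groups where it was high, with 2 to 6 reads in each 24 h library, so its call had to rest on those groups and nothing is read from it. Without WS48 replicate 2 the values were 2.10 for Gh_A09G1510 and 2.86 for Gh_D13G1617, and 1 member was called. The number was also 1 without WW24 replicate 1 or 3, and 3 without WW24 replicate 2. The other TAU 8 genes overlapped between these groups, and their log2 fold changes were −0.21 (SE 0.63) for Gh_A09G1508, 0.63 (SE 0.68) for Gh_A09G1509 and 0.87 (SE 0.55) for Gh_D09G1520. This comparison shares its WW24 libraries with WW48/WW24 and with WS24/WW24, and its WS48 libraries with WS48/WS24 and WS48/WW48.

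In order of level, TAU 19 ran from WS48 through WW48 and WS24 to WW24, with means of 17.8 ± 12.9, 5.37 ± 0.995, 2.53 ± 0.670 and 1.36 ± 0.731 CPM (SD, n = 3 each). Only the neighbours WS24 and WW24 overlapped. The TAU 8 sum ran from WW48 (1923 ± 701 CPM) through WS48 (434 ± 367) and WW24 (249 ± 205) to WS24 (93.6 ± 20.5). WW48 stood clear of the rest, and WW24 overlapped with both WS48 and WS24.

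The TAU 8 reads were divided between the genes differently in stressed and watered tips at 24 h. These are shares of reads, not of transcripts, since longer transcripts collect more reads. Gh_D09G1520 held 68.3%, 74.7% and 70.1% of the TAU 8 reads in WS24, against 41.2%, 52.2% and 49.9% in WW24, with no overlap. Gh_A09G1509 held 29.2%, 22.8% and 27.9% in WS24, against 55.9%, 45.5% and 47.8% in WW24. The smallest of these libraries, WS24 replicate 2, had 736 TAU 8 reads, for which the exact 95% binomial interval of the Gh_D09G1520 share was 71.4% to 77.8%, an interval that covers counting error only.

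At 48 h the share of Gh_D09G1520 was 66.8%, 45.0% and 67.4% in WS48, against 58.8%, 49.1% and 50.9% in WW48. WS48 replicates 1 and 3 thus lay above all watered libraries, whereas WS48 replicate 2 lay within the watered range of 41.2% to 58.8%. Gh_A09G1510 held 6.24% of the TAU 8 reads in WS48 replicate 2 and at most 2.48% in any other library. How reads that fit several of these genes were treated is not fully known, and their sequences were not at hand. The division between the 4 genes is therefore uncertain. Their sum is not affected by exchange among them, but reads assigned to no gene are missing from it.

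**Figure D3:**
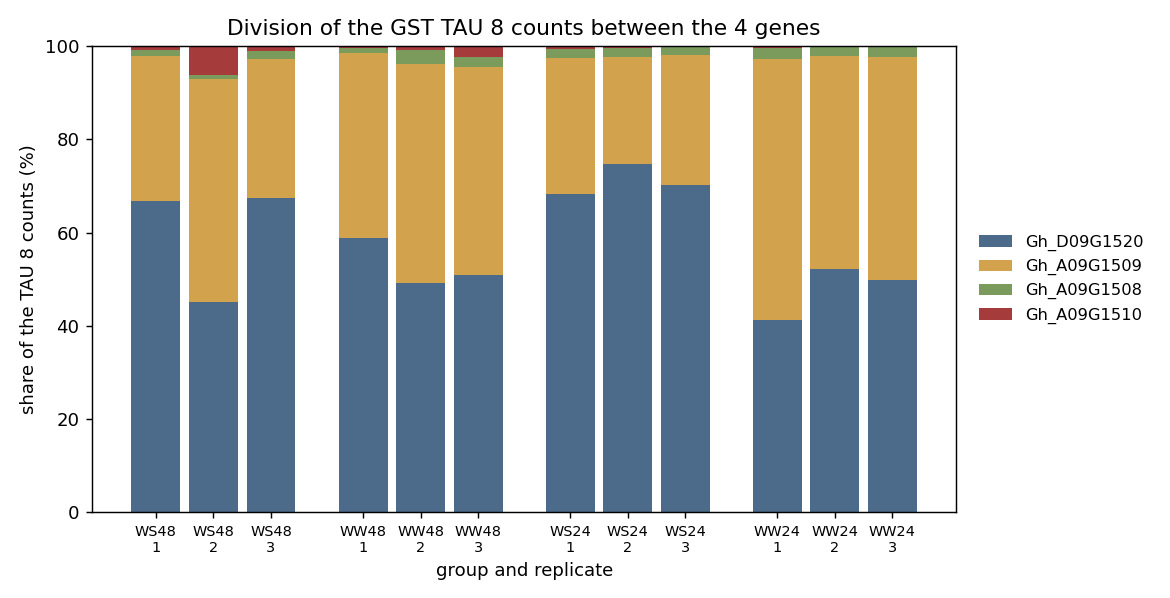
Share of the TAU 8 reads (%, stacked bars) that each of the 4 genes held in each library, by group (WS48, WW48, WS24, WW24) and replicate. Gh_D09G1520 holds 68.3% or more in the WS24 bars and 66.8% and 67.4% in WS48 replicates 1 and 3, and 45.0% in WS48 replicate 2, where Gh_A09G1510 holds 6.24%.

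Over the 12 libraries, log2 CPM of the TAU 8 genes correlated among themselves with Pearson's r of 0.754 (Gh_A09G1508 with Gh_A09G1510) to 0.950 (Gh_A09G1509 with Gh_D09G1520). With TAU 19 the values were 0.199 to 0.694, and 0.383 for the TAU 8 sum. These points share 4 groups and the libraries described above, and the values are given without a test. Other genes of the same orthogroup in the study's tables gave almost no reads. Gh_D09G1521, a further TAU 8 gene next to Gh_D09G1520 in numbering, had 14 reads over all libraries, and of the GST TAU 7 genes Gh_A03G0384 had 0, Gh_D03G1155 had 2 and Gh_D03G1156 had 1. None of the 4 passed the filter.

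Other glutathione-linked genes were examined for the age change. Of 10 genes from the study's tables (4 of glyoxalase I, 1 glutaredoxin, 2 multidrug resistance-associated proteins and 3 thioredoxins, which reduce disulfides without glutathione), 0 were called by edgeR in WW48/WW24 and 0 in WS48/WS24, where over all genes tested 3.53% were called higher and 1.26% lower, and 0.127% higher and 0.255% lower. A count of 0 among 10 genes is near those shares and sets the list apart from other genes in no way. At an unadjusted p under 0.05 there was 1 in WW48/WW24 and none in WS48/WS24. The study picked these genes for their response in WS48 against both watered groups in the same libraries, which is no independent evidence of their direction in WS against WW tips. In WS48/WW48, 4 of 4 glyoxalase I genes, the glutaredoxin Gh_A04G0465, 1 of 2 transporters and 2 of 3 thioredoxins were called lower, and 1 thioredoxin, Gh_A05G0320, was called higher. Over all genes tested, 5.98% were called lower and 3.18% higher in that comparison.

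Among them, glyoxalase I gene Gh_D10G0718 averaged 31.0 ± 3.11 CPM in WS48, against 141 ± 22.0 CPM in WW48 (SD, n = 3 each), a log2 fold change of −2.19 (SE 0.20). Since these genes were picked on the same WS48, WW48 and WW24 libraries, no p-values are given for WS against WW tips. In WS24/WW24, 3 of 4 glyoxalase I genes and 2 of 3 thioredoxins were called lower. Over all genes tested, 4.93% were called lower and 3.75% higher in WS24/WW24. The vacuolar transporters went opposite ways there. Multidrug resistance-associated protein 6, Gh_A10G0537, averaged 28.0 ± 3.73 CPM in WS24, against 9.62 ± 5.61 CPM in WW24, with a log2 fold change of 1.52 (SE 0.47). Its WW24 replicates 1, 2 and 3 had 13.4, 3.17 and 12.3 CPM, so the size of the change leans on replicate 2. Multidrug resistance-associated protein 3, Gh_D04G1809, averaged 10.2 ± 2.60 CPM in WS24, against 24.5 ± 4.40 CPM in WW24, with a log2 fold change of −1.26 (SE 0.21).

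Genes numbered next to the members moved with age in a few cases. Of 30 genes whose ID number lay within 5 of a member on its chromosome, 18 were tested, with a median log2 fold change of 0.02 in WW48/WW24. In that comparison 3 were called higher and 1 lower (Gh_A09G1515, −1.41), where 3.53% of the genes tested were called higher and 1.26% lower. Gh_A09G1506, a pair of numbers before the A09 array and without an annotated function in the tables used, averaged 13.6 CPM in WW48, against 0.109 CPM in WW24, and 25.5 CPM in WS48, against 3.74 CPM in WS24. Its log2 fold change was 6.71 (SE 0.79) in WW48/WW24 (adjusted p 0.0014 by edgeR), which rests on a WW24 level near 0. It was 2.77 (SE 0.47) in WS48/WS24 (adjusted p 0.030 by edgeR), the one call among the neighbours in stressed tips. Over all genes tested, 0.127% were called higher and 0.255% lower in WS48/WS24.

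Gh_D09G1517, likewise without a function in the tables, averaged 121 CPM in WW48, against 5.93 CPM in WW24, a log2 fold change of 4.38 (adjusted p 0.0017 by edgeR). Near TAU 19, Gh_D13G1614, annotated as nine-cis-epoxycarotenoid dioxygenase 3, a key enzyme of abscisic acid synthesis, had a log2 fold change of 2.44 in WW48/WW24 (adjusted p 0.045 by edgeR), at means of 0.957 CPM in WW48, against 0.160 CPM in WW24. That WW24 level is near 0 as well. All other neighbours tested missed the thresholds in both age comparisons, apart from those named here. How far the neighbours' calls depend on single libraries was not examined.

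The genes most like the TAU 8 sum over the 12 libraries, by Pearson's r of log2 CPM among tested genes with a mean of at least 1 CPM, were Gh_A09G2498 (r 0.998), Gh_D12G1564 (0.995), Gh_A13G1565 (0.992), Gh_D01G1983 (0.989) and Gh_Sca014110G01 (0.989), none with a function in the tables. Gh_A09G2498 averaged 241 CPM in WW48, against 26.6 CPM in WW24, and 41.7 CPM in WS48, against 8.26 CPM in WS24. Among genes with a function, the closest were the methyltransferase genes Gh_D09G0289 (0.972), Gh_D02G1850 (0.954) and Gh_A11G2625 (0.938), followed by the AT-hook gene Gh_D03G1633 (0.931) and phloem protein 2-B2, Gh_A09G1815 (0.928). These genes with a function are ones the study listed in its tables. The methyltransferase genes had few reads at 24 h, and Gh_D09G0289 and Gh_D02G1850 also in WS48, with means of 0.444 and 0.430 CPM. Their r thus rests in part on values near 0. Gh_D09G0289 averaged 5.58 CPM in WW48, 0.444 CPM in WS48, 0.397 CPM in WW24 and 0 CPM in WS24. Gh_A11G2625 averaged 24.4 CPM in WW48, 6.87 CPM in WS48, 0.0959 CPM in WW24 and 0 CPM in WS24. Its WS48 mean comes mostly from replicate 2, with 0.288, 18.95 and 1.38 CPM in replicates 1, 2 and 3.

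With 4 to 365 reads a library, against 736 to 17718 for the TAU 8 sum, TAU 19 was more open to counting error. It had no gene as close, which is not read as a trait of the gene. Its highest values were 0.937 for Gh_D07G0540, 0.934 for Gh_A09G0939 and 0.927 for Gh_D09G0966, followed by Gh_A08G1752 and Gh_D08G1157. With a function, these were an acyl-transferase, Gh_D13G2547 (0.920), a nucleotide-sugar transporter, Gh_D05G0159 (0.910), and UDP-glucosyl transferase 85A2, Gh_D13G0523 (0.886). The last, of a family that attaches glucose to small molecules, averaged 15.2 CPM in WS48, 11.1 CPM in WW48, 7.16 CPM in WS24 and 4.07 CPM in WW24. Prolyl oligopeptidase Gh_A01G0875 and Gh_D12G1356, of unknown function, came next.

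Cell type markers moved with the groups and in part with the libraries that stood apart. A list of 6 xylem genes (laccases, which polymerise lignin, and a xylem peptidase) summed to 63.4, 127 and 70.7 CPM in WS48, 949, 1363 and 687 CPM in WW48, 31.7, 21.1 and 33.0 CPM in WS24, and 207, 807 and 282 CPM in WW24, with no gene of the list at 0. In that sum WW24 replicate 2 and WS48 replicate 2 were each the highest of their group, as for TAU 8. Within the list, Gh_A13G0237, Gh_D13G0253 and Gh_A11G0757 were instead lowest of the WS48 libraries in replicate 2, at 7.06, 7.42 and 0.626 CPM. The laccase 14 genes Gh_A05G2114, Gh_A05G2115 and Gh_D05G2355 carried most of the sum, and the laccase 11 genes Gh_A13G0237 and Gh_D13G0253 had log2 fold changes of −0.56 and −0.80 in WW48/WW24, opposite in sign to the other 4. Of these 6 genes, 0 were called in either age comparison, 4 were called lower in WS48/WW48 and 6 lower in WS24/WW24. Over all genes tested, 5.98% were called lower in WS48/WW48 and 4.93% in WS24/WW24.

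The 5 phloem genes summed to 7.77 to 9.57 CPM in WS48, 52.3 to 94.6 CPM in WW48, 5.55 to 7.85 CPM in WS24 and 27.9 to 67.9 CPM in WW24, with 1 or 2 of the genes at 0 in each WS48 library and 1 in WS24 replicate 3. In WW48/WW24, 1 of them was called higher, where 3.53% of the genes tested were. The 7 genes of dividing cells (tubulins, histones and a cyclin) summed to 709 to 871 CPM in WS48, 173 to 216 CPM in WW48, 876 to 940 CPM in WS24 and 259 to 356 CPM in WW24. Tubulins carried most of that sum. In WS48/WS24 the tubulins Gh_A03G0127 and Gh_D03G1454 had log2 fold changes of −0.28 and −0.44. The other tubulins, the histones and the cyclin had positive ones, with 0.91 and 0.99 for histones Gh_A13G1131 and Gh_D10G0496. In that comparison 0 of the 7 were called. In WS48/WW48 all 7 were called higher, where 3.18% of the genes tested were.

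Marker levels and TAU 8 levels were not in one ratio. Every WS48 library had less xylem marker signal than every WW24 library, while their TAU 8 sums overlapped. TAU 19 was highest in WS48, where the xylem markers were below both watered groups. The root hair pair summed to 121 to 168 CPM in WS48, 238 to 398 CPM in WW48, 85.7 to 139 CPM in WS24 and 178 to 596 CPM in WW24, the last from replicate 2. The one root cap gene was at 6.05 to 7.52 CPM in WS48, 2.00 to 2.47 CPM in WW48, 7.52 to 8.78 CPM in WS24 and 0.719 to 2.58 CPM in WW24, lowest in WW24 replicate 2. Most of these markers were picked by the study on the same libraries for their change in WS48 against both watered groups. Their direction in those comparisons therefore came with the choice, and nothing is read from setting it beside the TAU genes. The part of cell type makeup in the TAU changes was not tested.

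**Figure D4:**
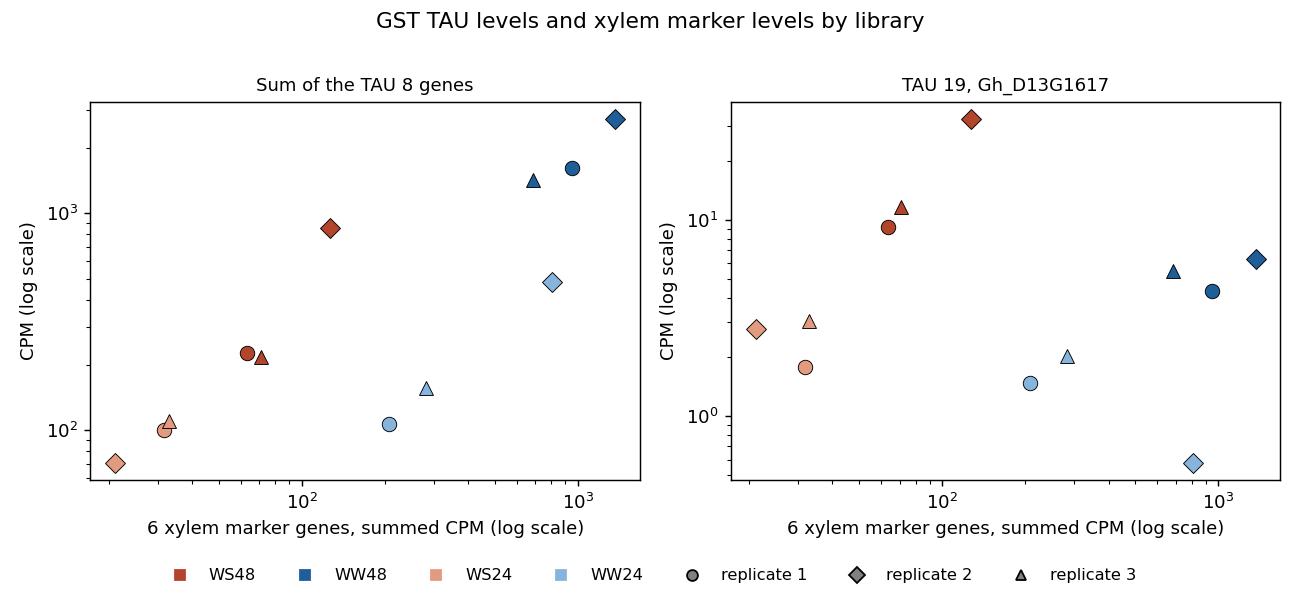
TAU 8 sum (left) and TAU 19 (right) in CPM against the summed CPM of 6 xylem marker genes, both axes logarithmic, with a point for each library, coloured by group (WS48, WW48, WS24, WW24) and shaped by replicate. WW48 libraries, at 687 to 1363 CPM of markers, hold the highest TAU 8 sums, while the highest TAU 19 points are the WS48 libraries at 63.4 to 127 CPM of markers.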

How the data were processed

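RNA-seq of 12 cotton root tip libraries was analysed. The authors aligned reads to the cotton NAU-NBT genome, and the submitters' processing notes name HISAT2 1.0 and HTSeq 0.6.1. The authors deposited whole-number counts per gene (70477 genes). The 4 lines that name no gene held 31.2% to 39.1% of reads and were left out. The normalized values the authors also deposited (a score, TMM-scaled and rounded) were not used. The sources used here do not give whether counting used the strand.

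Counts were fitted in R 4.3.3 with edgeR 4.0.16 (filterByExpr, minimum count 10; TMM; quasi-likelihood test of 1 model of 4 groups; Benjamini-Hochberg adjustment over 43938 genes) and called at an adjusted p of 0.05 or less and an absolute log2 fold change of at least 1, the study's thresholds. The test was checked on simulated data drawn independently for each gene, with no library standing apart. That check does not cover libraries such as WW24 replicate 2. For the TAU 8 sum, the 4 rows were replaced by their sum. Alternatives used DESeq2 1.42.0, limma 3.58.1 (voom), other scalings and filters, a replicate block, the compared groups alone and each library left out. Named genes were the members, their orthogroup, listed glutathione-linked genes, neighbours by ID called in an age comparison, and the 5 genes most alike. Members and lists were chosen with earlier results of these data known. Between same-numbered replicates of different groups, deviations correlated with r −0.18 to 0.38, over 0.1 in 6 of 18 pairs, so the numbers were not taken as pairs.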

Additional observations from a re-analysis of the deposited data

Results flagged for a closer look

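The glyoxalase I gene Gh_D10G0718 changed with age in opposite directions in stressed and watered tips, without overlap. It had 34.5, 29.9 and 28.5 CPM in WS48, below the 42.7, 36.5 and 42.0 CPM in WS24, and 127, 167 and 130 CPM in WW48, above the 89.2, 105 and 61.8 CPM in WW24. The difference of the age changes was −1.11 on the log2 scale (SE 0.27) and did not pass the test (adjusted p 0.163 by edgeR's quasi-likelihood test over all genes), so opposite age changes are not established. Its log2 age changes were −0.38 (SE 0.19) in stressed and 0.73 (SE 0.19) in watered tips, both short of the fold threshold.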

How the results depend on the processing

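The age changes of the 5 TAU genes and of their TAU 8 sum were positive in both WW48/WW24 and WS48/WS24 under all 21 alternatives of each. The genes were chosen with these changes known. In each, every 48 h library lay above every 24 h library of the same treatment. Leaving out a library could therefore hardly turn the sign, and nothing is read from this. Of 749 fold changes under alternatives, 49 moved by more than 1 SD, a spread worked out from the SE of the main fit. None of the called ones reversed, and those not called were not counted as reversals. The difference of age changes of Gh_A09G1509, near 0 in the main fit, kept its sign in 11 of 20 alternatives.

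Over fits without one library, genes called ranged from 739 to 5199 in WW48/WW24 (2106 with all), 26 to 1214 in WS48/WS24 (168), 0 to 1657 in the difference of age changes (0), 2396 to 4727 in WS24/WW24 (3812), 2611 to 5464 in WS48/WW48 (4025) and 2316 to 3800 in WS48/WW24 (3282). Members called ranged from 1 to 5, 0 to 4, 0 to 1, 0 to 1, 1 to 4 and 1 to 3 in the same order, and the TAU 8 sum from 2.58 to 3.85, 1.25 to 2.53, −1.70 to −0.37, −1.77 to −0.47, −3.10 to −1.81 and −0.16 to 1.73.

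Without WW24 replicate 2 and WS48 replicate 2 together, chosen after seeing the data, 5497, 753 and 2044 genes were called in WW48/WW24, WS48/WS24 and their difference, members called were 3 in WS48/WS24, 2 in the difference and 1 in WS24/WW24, and the TAU 8 sum was 3.85, 1.25, −2.60, −0.48 (WS24/WW24) and −3.08 (WS48/WW48). With the compared groups fitted alone, 395, 1529, 2280 and 1792 genes were called in WW48/WW24, WS48/WS24, WS24/WW24 and WS48/WW24, and 1, 5, 1 and 1 members; the difference has no such fit, and Gh_A09G1510 was not tested in WS24/WW24. Voom called 3 members in WW48/WW24 and 1 in WS48/WW24. DESeq2 called 861 genes and 2 members in WS48/WS24 and 399 genes in the difference. Without the filter, 257 and 22 genes were called in WS48/WS24 and the difference, and 1 member in WS24/WW24.

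With the replicate number as a block, 276 genes were called in WS48/WS24 and 2552 in WW48/WW24, and the members called numbered 5, 1, 0, 0, 4 and 2, as without the block. The numbers are no shown pairing. With library size in place of TMM, 9 genes were called in the difference, the median of all genes moved to 0.13 in WW48/WW24, 0.15 in WS24/WW24 and 0.17 in WS48/WW24, and higher calls made up 86.9% in WW48/WW24 (73.7% with TMM), 44.2% in WS48/WS24 (33.3%), 55.7% in WS24/WW24 (43.2%) and 63.3% in WS48/WW24 (47.8%). The causes were not tested. Few reads limit Gh_A09G1510 at 24 h (2 to 6 a library) and TAU 19.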
